A study of Mus musculus with 3 samples.

Results

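Mature neutrophils that carried a high level of Il1b transcripts were followed in a single-cell RNA-seq dataset of the mouse cochlea. A barcode belonged to this population when it held at least 500 UMIs (unique molecular identifiers, each standing for 1 captured transcript), at least 200 genes and at most 20% mitochondrial UMIs, and passed 4 gates on neutrophil genes. S100a8 and S100a9 together had to reach 200 UMIs per 10,000 of the cell. Cxcr2, a chemokine receptor of mature neutrophils, had to show at least 1 UMI. The granule genes Ngp, Camp and Ltf, which mark immature neutrophils, had to stay under 100 per 10,000 in sum, and Il1b had to reach 20 per 10,000. These gates selected 2120 of the 37188 barcodes kept. Since the gates use measured transcripts, the levels of these 7 genes describe the selection and are no result.

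The study compared cochleae of C57BL/6J mice in 3 groups, each labelled n = 6 and each with 1 library made from a cell suspension with a 10x Genomics 3' kit. One group was a control without noise, the HHL group received noise of 110 dB for 2 h, and the NIHL group received 115 dB for 4 h over 3 days. Cochleae of the noise groups were taken 6 h after the last exposure. The count matrix pools the 3 libraries and tells them apart only by a number at the end of each barcode, and no label ties such a number to a group. The libraries are therefore called library 1, library 2 and library 3, none is described as control, HHL or NIHL, and no comparison between exposures is made. Each library is 1 sample, so there is no test between libraries, and every interval given is a 95% interval that covers counting error only.

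Neutrophils form in bone marrow, where they load granule proteins stage by stage, and on maturing they lose those transcripts and gain Cxcr2, through which CXC chemokines draw them into tissue. Interleukin-1 beta, the product of Il1b, is made as an inactive precursor when Toll-like or cytokine receptors activate NF-kB, and is released after cleavage by caspase-1 in an inflammasome such as the one built on NLRP3. It acts on other cells through a receptor of IL1R1 and IL1RAP, while the antagonist IL1RN and the decoy receptor IL1R2 hold it back. Neutrophils reach the cochlea from blood and from the marrow of the surrounding bone.

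The selected cells carried neutrophil transcripts together with low sums of markers of other cell types. The 18 neutrophil markers examined summed to 245374, 252947 and 288141 UMIs per 1000000 of the summed cells (CPM) in libraries 1, 2 and 3. Among these markers S100a8 and S100a9, which were gated on, gave 17.2, 19.0 and 22.5% of all UMIs. This sum therefore largely describes the selection. Over the libraries 10 B cell markers summed to 165 to 199 CPM, 10 T or NK cell markers to 32.6 to 94.6 and 10 endothelial markers to 20.7 to 54.3. Monocyte markers summed to 781 to 1707 CPM, macrophage markers to 559 to 965, dendritic cell markers to 142 to 279, stromal markers to 160 to 488, and eosinophil, basophil or mast cell markers to 28.6 to 176. Xcr1, Ear1 and Il5ra had no UMI in any selected cell. Erythroid markers stood apart between libraries, with 274, 12400 and 7934 CPM. The part of these transcripts in the results was not tested.

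The population held 679 of 16883 kept barcodes in library 1, 810 of 9602 in library 2 and 631 of 10703 in library 3. These are 4.02% (Clopper-Pearson interval 3.73 to 4.33%), 8.44% (7.89 to 9.01%) and 5.90% (5.46 to 6.36%). Among mature neutrophils alone, defined by the same gates without Il1b, the share with high Il1b was 25.8% in library 1 (24.1 to 27.5%), 37.3% in library 2 (35.3 to 39.4%) and 43.9% in library 3 (41.3 to 46.5%). Library 2 thus had the largest share of all barcodes and library 3 the largest share of mature neutrophils. The median depth of the selected cells was 2185, 2230 and 3280 UMIs. When every cell was thinned to 1000 UMIs and gated again, the shares of mature neutrophils were 36.4%, 49.8% and 54.0%, in the same order. Of the mature neutrophils 14, 20 and 10 were too shallow to be thinned, with 3, 9 and 2 selected cells among them. After gating again mature neutrophils numbered 1743, 1421 and 909, against 2636, 2170 and 1438 before. Thinned, Cxcr2 was detected in 78.3, 80.5 and 74.9% of high and in 63.2, 59.0 and 56.1% of low Il1b cells. Low Il1b cells thus lost the Cxcr2 gate more often, and the thinned shares rest on a different set of cells. No selected barcode was a selected barcode of a second library, although 46, 53 and 31 kept barcodes were shared between library pairs 1 and 2, 1 and 3, and 2 and 3.

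The gate cut through a continuous range of Il1b levels. The median Il1b level of the selected cells was 37.5, 47.7 and 41.4 UMIs per 10,000 and the highest was 227, 367 and 284, from medians of 9, 11 and 15 Il1b UMIs per cell. Cells just inside the gate, at 20 to 25 per 10,000, numbered 113, 95 and 92, against 160, 106 and 111 just outside it, at 15 to 20. Around the gate, summed Cxcl2 was 970, 265 and 1521 CPM just inside and 748, 309 and 1349 just outside. Acod1 was 355, 123 and 398 CPM inside and 184, 81.9 and 350 outside. In the remaining mature neutrophils 938, 601 and 269 cells had no Il1b UMI.

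**Figure D1:**
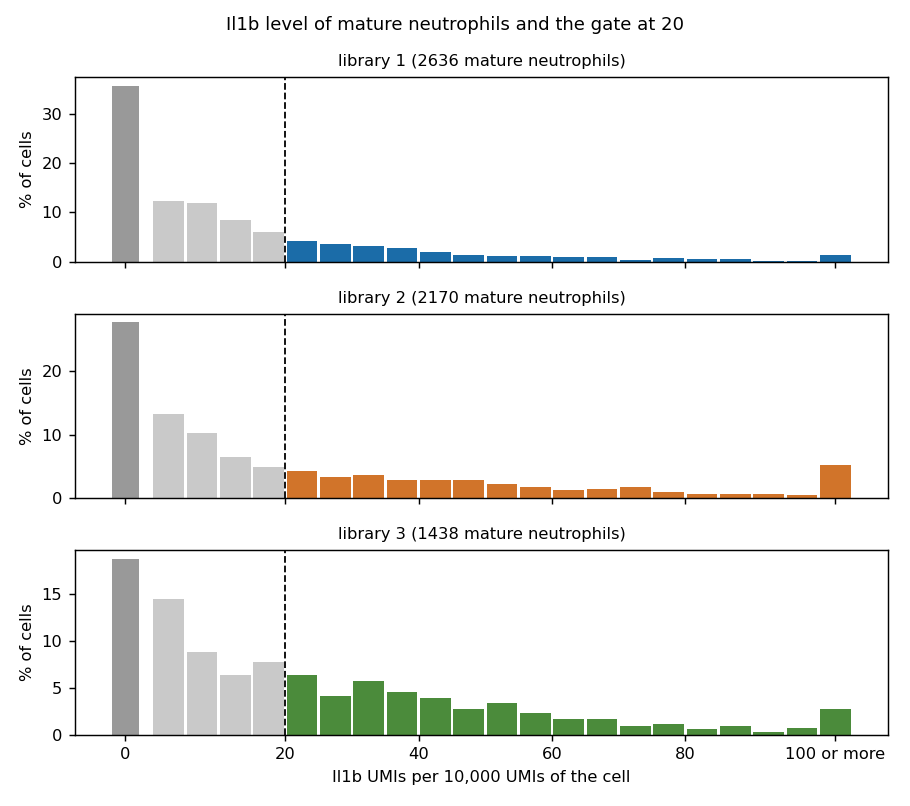
Distribution of the Il1b level (x axis, UMIs per 10,000 UMIs of the cell) over mature neutrophils of each library (y axis, percent of cells). Grey bars are cells with low Il1b, the darker grey bar at the left cells with no Il1b UMI, coloured bars the 679, 810 and 631 selected cells, and the dashed line the gate at 20, where the distribution has no gap.

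The cells with low Il1b, 1957, 1360 and 807 mature neutrophils that passed every other gate, are the most like population and served for comparison. Levels were summed over cells within a library, and a gene counted as higher or lower when the ratio was at least 2-fold in the same direction in each of the 3 libraries, with at least 20 UMIs per library. By this rule 197 of 10187 genes were higher in the high Il1b cells, or 1.93%, and 1908 were lower, or 18.7%. The low Il1b cells reached far greater depths, with a 95th percentile of 16025, 17043 and 33399 UMIs against 5116, 4697 and 6882, and 9.86, 10.2 and 14.5% of them were called doublets against 1.03, 1.48 and 1.58%. When low Il1b cells deeper than that percentile of the high Il1b cells were left out and all cells were thinned to 1000 UMIs, an alternative added after these depths were seen, 59 of 4318 genes were higher, or 1.37%, and 10 were lower, or 0.232%. Of the 59, 44 were among the 197, and none of the 10 was among the 1908. The low Il1b cells also had more monocyte marker UMIs, 2899, 1853 and 3291 CPM against 1534, 781 and 1707, and their part in the differences was not tested. Rescaling totals by TMM, an edgeR method, gave 386 higher and 1368 lower genes, and by median-of-ratios size factors 535 and 1183. The gene lists below are given on both footings, the second called matched depth. Across all genes the median log2 ratio was -0.42, -0.28 and -0.59 at first and 0.13, 0.29 and 0.10 at matched depth, so a list is read against these values.

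Since Il1b (ENSMUSG00000027398) was used in the selection, its level is a description. It was 4356 CPM in library 1, 5440 in library 2 and 4540 in library 3, against 349, 345 and 386 CPM in the low Il1b cells. Of 3 marker genes named for this population that were not gated on, Acod1 and Cxcl2 differed more than Clec4d. Acod1 (ENSMUSG00000022126), which makes the metabolite itaconate in activated myeloid cells, was at 516, 276 and 756 CPM in high Il1b cells and at 76.6, 34.1 and 104 CPM in low Il1b cells. This is 6.74-fold (6.09 to 7.45), 8.08-fold (6.97 to 9.38) and 7.30-fold (6.71 to 7.94). Cxcl2 (ENSMUSG00000058427), a chemokine that attracts neutrophils through Cxcr2, was at 1491, 817 and 2190 CPM against 294, 77.5 and 453, or 5.08-, 10.5- and 4.84-fold higher. Clec4d (ENSMUSG00000030144), a C-type lectin receptor, was at 895, 910 and 791 CPM against 384, 314 and 237. At matched depth Acod1 stayed higher by 2.17, 1.97 and 1.97 on the log2 scale, and Cxcl2 by 1.83, 3.03 and 1.27. Clec4d, at 0.41, 0.74 and 0.47 on that scale, did not reach 2-fold.

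Acod1 and Cxcl2 were detected together in more of the high Il1b cells. At 1000 UMIs per cell, where 0 UMIs do not show that a transcript is absent, Acod1 and Cxcl2 were both detected in 17.2, 7.74 and 27.3% of high Il1b cells and in 2.77, 0.371 and 5.51% of low Il1b cells. Neither was detected in 42.3, 63.0 and 24.3% of high Il1b cells. Acod1 was detected in 29.4% (26.0 to 33.0%), 17.5% (14.9 to 20.3%) and 43.4% (39.5 to 47.4%) of them, with or without Cxcl2. In B cells of the same libraries, which should lack the gene, Acod1 was detected at that depth in 0.619, 0.366 and 0.693%, a level that free RNA can give. The unthinned shares in high Il1b cells were 46.1, 30.9 and 69.7% at median depths of 2185, 2230 and 3280 UMIs, and in B cells 1.23, 0.727 and 2.97% at 3700.5, 4211 and 3735.

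Promoter sequences are shown for Il1b itself and for the named genes whose promoter held the motif of NF-kB, a transcription factor known to induce many inflammatory genes. The windows are the 250 bases before the gene start in RefSeq, on build GRCm38.p6, which differs from the build of the counts. Capitals mark matches to GGGNNTTTCC, searched on both strands, and each sequence reads 5' to 3' on the strand of the gene.
Il1b, chr2:129371140-129371389, minus strand: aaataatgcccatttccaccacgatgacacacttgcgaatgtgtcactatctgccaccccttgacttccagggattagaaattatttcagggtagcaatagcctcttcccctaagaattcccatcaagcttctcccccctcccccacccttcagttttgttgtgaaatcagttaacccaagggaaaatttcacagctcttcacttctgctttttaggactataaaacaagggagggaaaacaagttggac
Cxcl2, chr5:90903649-90903898, plus strand: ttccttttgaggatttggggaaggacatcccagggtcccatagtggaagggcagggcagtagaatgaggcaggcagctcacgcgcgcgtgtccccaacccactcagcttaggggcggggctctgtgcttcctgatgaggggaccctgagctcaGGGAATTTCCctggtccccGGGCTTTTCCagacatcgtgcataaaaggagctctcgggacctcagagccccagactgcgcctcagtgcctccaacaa
Nfkbia, chr12:55492648-55492897, minus strand: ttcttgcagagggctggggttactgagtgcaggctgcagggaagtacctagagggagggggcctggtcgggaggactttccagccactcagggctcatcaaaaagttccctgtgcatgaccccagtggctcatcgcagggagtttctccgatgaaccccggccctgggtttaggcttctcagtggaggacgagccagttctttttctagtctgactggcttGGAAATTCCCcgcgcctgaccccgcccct
The motif was found in 464 of 32851 RefSeq promoter windows of this length, or 1.41%, and in 2 of the 15 named genes with an entry among 18 looked up. Cxcl2 held 2 matches, starting 97 and 78 bases before the gene start on the strand of the gene, and Nfkbia held 1 match on the other strand, starting 29 bases before it. The window of Il1b held none, which says only that these letters are absent from it.

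The 15 genes with the largest excess in high Il1b cells were Acod1, Ccrl2, Cxcl2, Ptgs2, Egr3, H2-Q10, Hcar2, Sirpb1c, Nlrp3, Nfkbia, Sirpb1b, Gm5150, Tnfaip2, Cd14 and Marcksl1, ranked by the library with the smallest ratio. Ccrl2, a receptor that binds chemerin, was at 151, 118 and 282 CPM against 23.4, 16.5 and 45.2 in low Il1b cells. Ptgs2, the inducible cyclooxygenase of prostaglandin synthesis, was at 167, 351 and 202 CPM against 36.9, 57.2 and 33.1, or 4.51-fold (3.84 to 5.30), 6.14-fold (5.45 to 6.92) and 6.12-fold (5.25 to 7.15) higher. The 15 genes were chosen for an excess in every library, so its presence in each library is no separate result. Hcar2, the receptor for beta-hydroxybutyrate and niacin, was at 353, 304 and 352 CPM against 97.9, 64.1 and 74.8. Tnfaip2, which TNF induces, was at 707, 815 and 606 CPM against 206, 226 and 192. Cd14, the co-receptor for lipopolysaccharide, was at 323, 215 and 383 CPM against 101, 68.0 and 97.1. At matched depth 14 of the 15 kept a 2-fold excess in each library, Sirpb1b being the exception. Sirpb1b, Sirpb1c and Gm5150 belong to one family of near-identical signal-regulatory protein genes, and H2-Q10 to the class I MHC genes, so reads may be split between relatives and their values are uncertain.

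**Figure D2:**
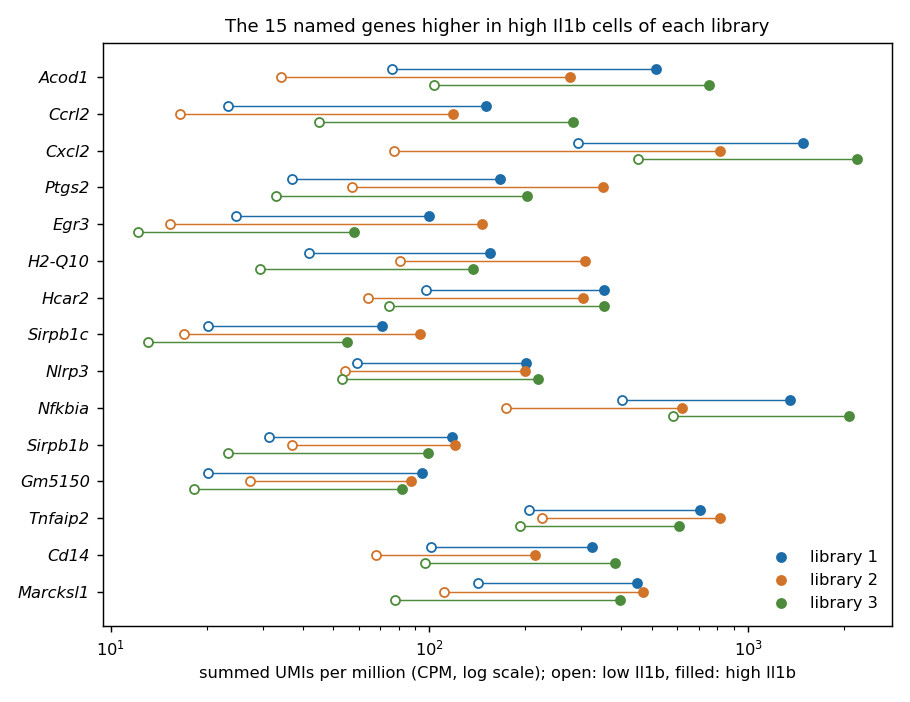
Level in CPM (x axis, log scale) of the 15 named genes in low Il1b cells (open points) and high Il1b cells (filled points) of each library, joined by a line for each library. The filled point lies to the right of the open point in all 3 libraries because the 15 genes were chosen for this. Acod1, for example, was at 516, 276 and 756 against 76.6, 34.1 and 104 CPM.

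Within the interleukin-1 system, 4 of 17 genes were higher and 1 lower besides Il1b itself. The sensor Nlrp3 was at 201, 200 and 220 CPM against 59.2, 54.4 and 53.0 in low Il1b cells, or 3.39-, 3.67- and 4.14-fold higher. Between libraries its highest and lowest level differed 1.10-fold (0.962 to 1.25). The decoy receptor Il1r2 was at 411, 515 and 281 CPM against 151, 142 and 139, and Casp4, the murine caspase-11 gene, at 109, 55.8 and 160 against 44.3, 19.9 and 61.2. Il1rap, the accessory chain of the receptor, was at 40.2, 43.9 and 59.5 CPM against 14.97, 15.5 and 16.4. The adaptor Pycard was the gene on the low side, at 56.1, 36.5 and 88.2 CPM against 117, 76.8 and 273, but with TMM and median-of-ratios factors 6 and 8 genes of the list were higher and none lower. At matched depth Il1rap and Nlrp3 remained 2-fold higher among 14 genes and none was lower. The receptor antagonist Il1rn was at 125, 216 and 178 CPM against 64.0, 99.8 and 45.5, just under 2-fold in library 1. Casp1, which cleaves the precursor, was at 28.9, 20.2 and 69.3 CPM against 31.2, 16.6 and 55.8, and Gsdmd, the pore protein, at 62.0, 57.2 and 54.8 against 46.5, 36.3 and 42.7, without a 2-fold difference in any library. Il1a was at most 12.4 CPM and the signalling receptor Il1r1 at most 1.71 CPM in the high Il1b cells.

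Chemokine genes were higher for 4 of 12 genes and lower for none. Besides Cxcl2 these were Ccl6, Ccl3 and Cxcl10. Ccl6 was at 2126, 2681 and 1519 CPM against 882, 1244 and 442. Ccl3, which attracts monocytes and other leukocytes, was at 82.1, 113 and 71.9 CPM against 26.6, 23.2 and 35.9. Cxcl10, induced by interferon, was at 97.5, 33.1 and 187 CPM against 29.4, 11.9 and 70.3, and at matched depth its level in low Il1b cells of library 2 rested on 1 UMI. At matched depth 4 of 6 were higher, with Ccl4 in place of Ccl6, and the list medians were 1.60, 2.69 and 1.68 on the log2 scale. Over the 12 genes at first the medians were 1.14, 0.0038 and 0.95, with library 2 at no difference, and the 6 genes are those with enough UMIs after thinning. Ccl4 was at 130.2, 380.8 and 103.3 CPM at that depth against 50.3, 74.9 and 20.04. Before thinning, 5 cells per library held 43.7, 24.6 and 48.0% of the Ccl4 UMIs of high Il1b cells. In low Il1b cells they held 38.6, 33.9 and 49.9%. Leaving out cells with over 1% hemoglobin UMIs lowered the chemokine count to 2 higher, with 1 lower. Cxcl1 was at most 9.84 CPM and Cxcl5 at most 0.987 CPM in high Il1b cells.

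Receptor genes split in their behaviour. Of 15 tested, 6 were higher and 1 lower, but at matched depth Ccrl2 alone of 13 remained 2-fold higher. Csf3r, the receptor for the growth factor G-CSF, was at 1222, 1742.1 and 904 CPM against 433, 486 and 247. Ptafr, the receptor for platelet-activating factor, was at 201, 243 and 216 CPM against 65.0, 64.5 and 58.8, and C5ar1, the receptor for the complement fragment C5a, at 418, 632 and 370 against 208, 258 and 122. Ccr1 and Cxcr1 were the others on the high side. Ccr2, a monocyte receptor, was lower at 41.9, 25.2 and 39.4 CPM against 135, 76.7 and 172, but at matched depth its log2 ratios were 0.92, 0.66 and 0.80, the other direction in all 3 libraries. Among cytokine genes, Tnf was at 201, 49.8 and 256 CPM against 60.4, 18.4 and 90.6, and remained higher at matched depth. Csf1, the macrophage growth factor, was at 112, 242 and 39.4 CPM against 18.7, 22.3 and 10.3, and at matched depth its log2 ratios of 2.39, 2.97 and 0.96 missed 2-fold in library 3. Il6 and Il10 were at most 12.4 and 4.28 CPM.

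Genes of NF-kB and its feedback were higher as a group. Of 24 genes, 10 were at least 2-fold higher in each library and none was lower, with list medians of 1.07, 1.12 and 1.29 on the log2 scale. At matched depth 7 of 22 were higher and none lower, with medians of 1.19, 1.02 and 0.88. Nfkbia, the inhibitor that NF-kB induces, was at 1349, 618 and 2071 CPM against 401, 174 and 582, or 3.36-fold (3.19 to 3.55), 3.55-fold (3.29 to 3.84) and 3.56-fold (3.42 to 3.70) higher. Nfkbiz was at 917, 225 and 1044 CPM against 250, 101 and 259, with log2 ratios at matched depth of 1.51, 0.52 and 1.27, under 2-fold in library 2. Tnfaip3, the deubiquitinase A20, was at 179, 75.5 and 310 CPM against 45.4, 29.8 and 72.9, and Gadd45b at 260, 150 and 571 against 83.8, 51.3 and 115. The subunit genes Nfkb1, Rel and Rela did not reach 2-fold in all libraries, for example Nfkb1 at 97.5, 69.6 and 106 CPM against 109, 68.8 and 88.3.

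In a list of myeloid activation genes, 12 of 27 were higher and none lower, and 6 of 24 were higher at matched depth, namely Acod1, Cd14, Hcar2, Marcksl1, Ptgs2 and Wfdc17. Slc7a11, the cystine importer, was at 846, 626 and 677 CPM against 276, 174 and 157, and Trem1, an amplifier of inflammatory signals, at 638, 531 and 451 against 274, 191 and 134, both below the matched depth rule. Among immediate-early genes 8 of 23 were higher and 2, Klf4 and Myc, lower, and 5 of 21 were higher at matched depth, which were Atf3, Dusp2, Egr1, Egr2 and Egr3. With called doublets left out the first of these counts was 3. Egr3 was at 99.8, 147 and 57.8 CPM against 24.8, 15.4 and 12.2. Of 10 Toll-like receptor pathway genes, 2 were higher, Tlr2 at 384, 278 and 381 CPM against 162, 94.0 and 123 and Tlr6, and none of 6 was so at matched depth.

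Genes of survival and of cell death were both found on the high side. Of 21 genes 8 were higher and 3 lower, and at matched depth 5 of 16 were higher and none lower. Those 5 were Bcl2a1b, Bcl2l11, Ninj1, Pim1 and Tnfrsf1b. Mcl1, which keeps neutrophils alive, was at 1764, 1893 and 1929 CPM against 876, 768 and 735, but at matched depth its log2 ratios of 0.53, 0.71 and 0.67 were under 2-fold. Bcl2a1b was at 48.4, 58.2 and 83.9 CPM against 9.37, 16.4 and 16.2, though Bcl2a1a, Bcl2a1b and Bcl2a1d are near-identical copies and reads may be split between them. The kinase gene Pim1 was at 1053, 1334 and 835 CPM against 353, 388 and 305. Bcl2l11, which encodes the death-promoting BIM, was also higher at 147, 78.0 and 104 CPM against 61.4, 33.4 and 39.7. Of adhesion genes 3 of 16 were higher, and at matched depth Cd274, Icam1 and Itga4 among 12. Cd274, the checkpoint ligand PD-L1, was at 46.1, 27.6 and 85.6 CPM against 10.0, 9.27 and 16.9.

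All 6 primary granule genes tested were lower at first, for example Elane, neutrophil elastase, at 92.1, 121 and 259 CPM against 1662, 741 and 1621, yet at matched depth none of 5 was lower or higher and the list medians were 0.04, 0.24 and -0.02. In the same way 12 of 12 cell cycle genes were lower at first and 0 of 6 at matched depth, and 6 of 13 heat shock genes and 0 of 8. The 10 lowest named genes, Hist1h1b, C1qbp, Prtn3, Elane, Ccdc34, Selenoh, Ybx3, Pclaf, Ranbp1 and Nusap1, came from that first comparison, and of them Prtn3, Elane, Pclaf and Ranbp1 had enough UMIs at matched depth, where none was 2-fold lower in all libraries. Secondary granule genes had median log2 ratios of -0.42, -0.82 and -0.05 over 9 genes at first, with 2 lower, and of -0.82, -1.09 and -0.75 over 8 at matched depth. There Cd177, a neutrophil surface protein, was the 1 gene of the list that was lower, at 354, 130 and 226 CPM against 731, 562 and 586. Ngp, Camp and Ltf of the same granules were gated on, so the level of this list is a description. The other genes lower at matched depth were Gpr27, Acvrl1, Tst, Msmo1, 1700047M11Rik, Ifitm6, Adpgk, Gdpd3 and Apmap. Of NADPH oxidase and oxidant defence genes 1 of 20 was higher and 2 lower, and 1 of 16 was higher and none lower at matched depth. Of glycolysis and hypoxia genes 1 of 21 was higher and none lower, and 0 of 18 at matched depth.

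**Figure D3:**
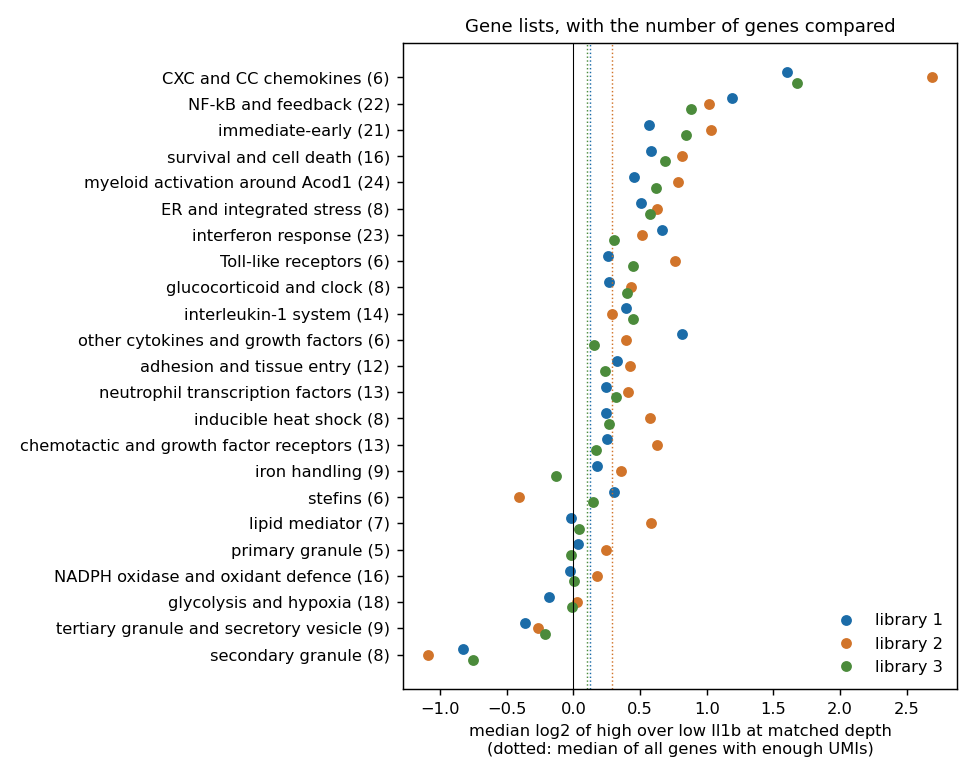
Median log2 ratio of high over low Il1b cells at matched depth (x axis) for gene lists with at least 5 genes compared (y axis). Cell type marker lists and the cell cycle list are not drawn. Numbers of genes are in parentheses, with 1 point per library and dotted lines at the median of all genes, 0.13, 0.29 and 0.10. Chemokines, with 1.60, 2.69 and 1.68 over 6 genes (1.14, 0.0038 and 0.95 over 12 before matching), lie farthest to the right and secondary granule genes, with -0.82, -1.09 and -0.75, farthest to the left.

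Against immature neutrophils, which carry Ngp, Camp and Ltf, the high Il1b cells stood further apart. There were 7251, 1571 and 1784 immature cells, at median depths of 6336, 7335 and 9184.5 UMIs, and depth was not matched in this comparison. Acod1 was 28.7-, 21.2- and 21.1-fold higher than the 18.0, 13.01 and 35.8 CPM of the immature cells. Ptgs2 was 19.0-, 19.0- and 22.1-fold higher, Clec4d 14.7-, 17.3- and 14.2-fold, and Nlrp3 14.2-, 17.2- and 13.4-fold. Tnf differed less, at 65.3, 48.1 and 61.2 CPM in immature cells, which is 3.08-, 1.04- and 4.18-fold. The granule gene Lcn2, lipocalin 2, was 4.52-, 4.91- and 4.26-fold lower in high Il1b cells, and Chil3 16.9-, 24.3- and 19.5-fold lower. The 2 populations were gated apart on Ngp, Camp and Ltf, granule genes of immature neutrophils. Lower levels of such genes therefore partly describe the selection. A share over all genes is not given for this comparison.

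Among the selected cells themselves, the level of Il1b went with a graded change of other transcripts. Cells were grouped at 20 to 50, 50 to 100 and 100 or more Il1b UMIs per 10,000, with 458, 185 and 36 cells in library 1, 434, 262 and 114 in library 2 and 395, 196 and 40 in library 3. Retnlg, a resistin-like gene of mature neutrophils, went from 43011 to 31165 and 17157 CPM in library 1, from 37264 to 25908 and 12304 in library 2, and from 34938 to 26846 and 8852 in library 3. Ly6g, a neutrophil surface marker, went from 887 to 623 and 290 CPM, from 393 to 223 and 101, and from 726 to 558 and 209. Nfkbia went the other way, from 1187 to 1697 and 2488 CPM, from 352 to 779 and 1656, and from 1649 to 2705 and 4973. Ptgs2, Acod1, Cxcl2, Nlrp3, Tnf, Csf3r and Il1r2 were also highest in the top group of each library. Median depth fell over the groups from 2364.5 to 1562.5, 2428.5 to 1871 and 3621 to 2189 UMIs, and since each level is a share of a cell's UMIs, the level of one gene constrains that of others. At 1000 UMIs per cell, over 676, 801 and 629 cells of 1 library each that share depth and total, Spearman's rho with Il1b was -0.30, -0.38 and -0.32 for Retnlg, 0.15, 0.26 and 0.24 for Nfkbia and 0.23, 0.27 and 0.16 for Srgn, the core protein of secretory granules. It was also negative for S100a8 with -0.27, -0.35 and -0.28 and S100a9 with -0.29, -0.37 and -0.28, both gated on. Mmp8 had -0.20, -0.25 and -0.18, and Lyz2 -0.21, -0.29 and -0.16. For some other genes rho was nearer to 0, as for Nlrp3 with 0.03, 0.13 and 0.05 and Ptgs2 with 0.07, 0.15 and 0.09. Ly6g had -0.13, -0.08 and -0.16. These are weak and are given as a description.

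**Figure D4:**
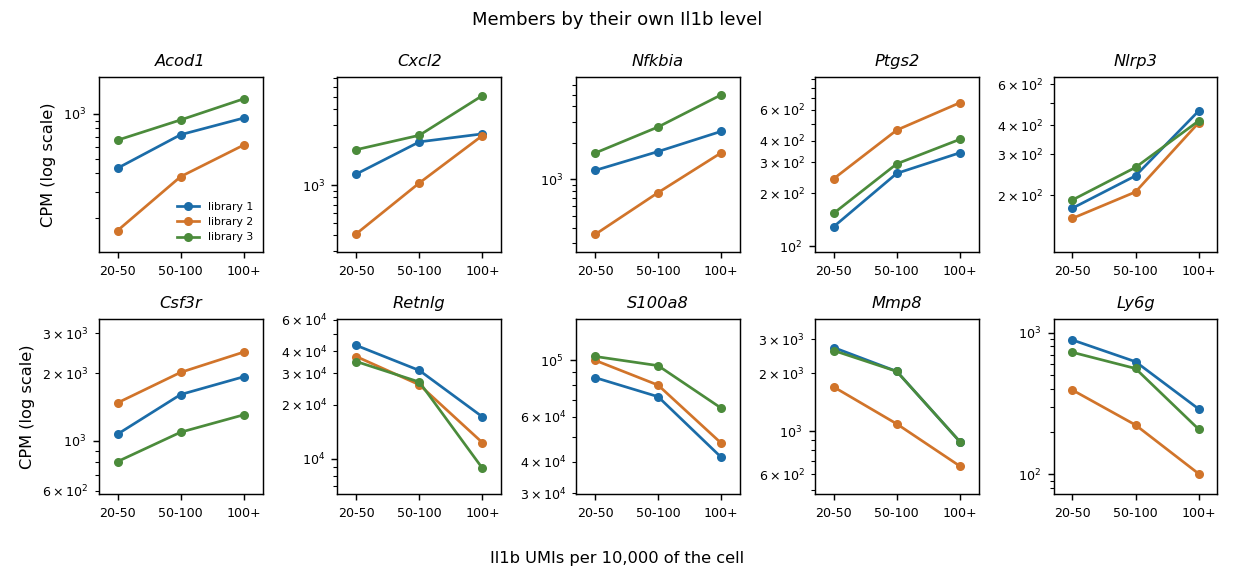
Level in CPM (y axes, log scale) of 10 genes in selected cells grouped by their own Il1b level (x axes, UMIs per 10,000), 1 line per library. Acod1, Cxcl2, Nfkbia, Ptgs2, Nlrp3 and Csf3r are higher in each step up in Il1b. Retnlg, S100a8, Mmp8 and Ly6g are lower, as Retnlg with 43011, 31165 and 17157 CPM in library 1. S100a8 was gated on, so its level is a description.

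The selected cells of the 3 libraries differed from each other in many genes. Of 2831 genes with at least 50 summed UMIs and 50 CPM in 1 library, 436 differed at least 2-fold between the highest and the lowest library, or 15.4%. Library 1 was highest for 119 of these, library 2 for 141 and library 3 for 176. Leaving out library 3 lowered the count to 121, leaving out library 2 to 209, and leaving out library 1 left 292. The largest ratios belonged to hemoglobin genes. Hbb-bs was at 115, 5660 and 3896 CPM, and was detected in 14.1, 99.6 and 94.97% of B cells of the same libraries, which should lack it. Prss34 and Col3a1 were also among the largest, with 93.0 and 95.5% of the Prss34 UMIs of libraries 1 and 3 and 88.0% of the Col3a1 UMIs of library 3 in 1 cell each. Coch, a fibrocyte gene, was at 8.86, 59.2 and 168 CPM, with 55.9% of its 392 UMIs of library 3 in 1 cell.

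Interferon-induced genes were highest in library 3. Of 25 genes of the interferon response tested, 23 differed at least 2-fold between libraries, and 22 of them were highest in library 3. The level of Isg15, which encodes a protein tag related to ubiquitin, was 220, 162 and 597 CPM. Ifit3 was at 33.1, 20.7 and 196 CPM and Gbp2, a guanylate-binding protein gene, at 117, 38.0 and 425, or 11.2-fold (8.86 to 14.3) from lowest to highest. Irf7, a regulator of interferon genes, was at 87.4, 41.9 and 235 CPM and Ifitm1 at 625, 1290 and 4268. Rsad2 was the exception at 366, 164 and 364 CPM, level in libraries 1 and 3. Library 2 lay lowest for Isg15, Ifit3, Gbp2 and Irf7 and between the others for Ifitm1. The same order of library 3 over the others was present in low Il1b cells, where Isg15 was at 79.5, 73.2 and 278 CPM, and in B cells, where it was detected in 5.83, 10.9 and 27.9% of cells. Thinned to 1000 UMIs, those shares were 0.619, 1.83 and 6.24%, against 14.8, 11.4 and 34.5% of high Il1b cells. Between high and low Il1b cells 4 of 29 genes of the list were higher and 1 lower, while TMM and median-of-ratios factors gave 11 and 14 higher and none lower. At matched depth 0 of 23 were higher or lower, with list medians of 0.66, 0.51 and 0.31. Ifit3 and Ifit3b are close copies whose reads may be split.

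Some NF-kB and feedback genes were lowest in library 2. Of 20 such genes tested 8 differed 2-fold, all highest in library 3 and lowest in library 2. Tnfaip2 of the same list was instead highest in library 2, at 707, 815 and 606 CPM. Il1b ranged from 4356 to 5440 CPM, highest in library 2, but it was gated on, so its order is a description. Nfkbiz was at 225 CPM in library 2 against 917 and 1044 in libraries 1 and 3, and Tnfaip3 at 75.5 against 179 and 310. Tnf followed the same order with 5.13-fold (4.15 to 6.39) between library 3 and library 2. Acod1 and Cxcl2 did likewise, with 2.74-fold (2.49 to 3.02) and 2.68-fold (2.53 to 2.83). The same order was present in low Il1b cells, so it is not particular to the selected cells. There Nfkbia was at 401, 174 and 582 CPM and Tnf at 60.4, 18.4 and 90.6. Acod1 was at 76.6, 34.1 and 104 CPM and Cxcl2 at 294, 77.5 and 453. With library 2 left out, 1 of the 20 NF-kB genes was 2-fold apart. Since library 2 was lowest for all 8, leaving it out could only lower their ratios.

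Another set of genes was highest in library 2. Cxcr4, the receptor that retains neutrophils in marrow and marks aged neutrophils, was at 314, 639 and 115 CPM, 5.55-fold (4.86 to 6.35) between libraries 2 and 3. Csf1 was at 112, 242 and 39.4 CPM, 6.15-fold (4.92 to 7.78). Egr2 was at 48.4, 95.2 and 25.7 CPM, and of 6 immediate-early genes that differed among 20, 5 were highest in library 2. That count was 3 with TMM, where Egr1 and Atf3 missed 2-fold. Ptgs2 was at 167, 351 and 202 CPM, 2.11-fold (1.84 to 2.43) between libraries 2 and 1, Clec4n, the dectin-2 gene, at 14.2, 74.0 and 15.4, and Thbs1, thrombospondin 1, at 87.4, 233 and 112. The surface marker gene Ly6g and some stefin genes were lowest in library 2. Ly6g was at 806, 311 and 659 CPM, and Stfa2, an inhibitor of cysteine proteases, at 455, 51.3 and 449, 8.87-fold (7.22 to 10.996). The stefin genes are close copies, so the split between Stfa1, Stfa2 and Stfa3 is uncertain. In low Il1b cells Ptgs2 was likewise highest in library 2, at 36.9, 57.2 and 33.1 CPM. Ly6g was lowest in library 3 among those cells, at 722, 501 and 406 CPM.

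**Figure D5:**
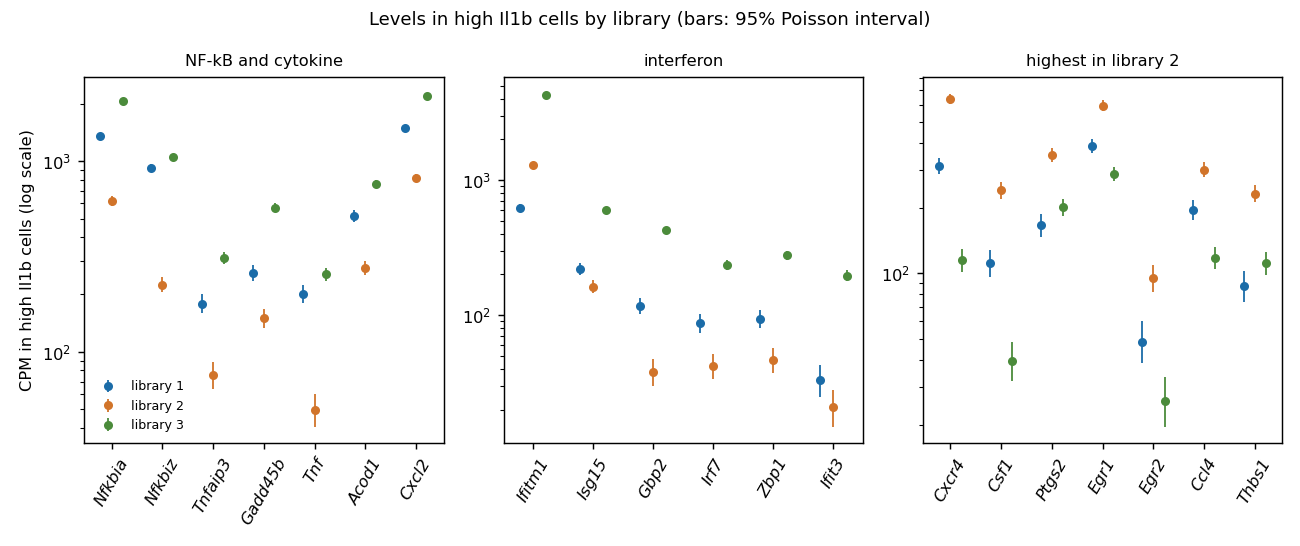
Level in CPM (y axes, log scale) of genes in the selected cells of library 1, 2 and 3, with 95% Poisson intervals that cover counting error only. In the left panel library 2 is lowest for each gene drawn (Nfkbiz 225 against 917 and 1044 CPM). Library 3 is highest for each gene of the middle panel and library 2 for each gene of the right panel. The genes drawn were chosen from longer lists, so a uniform order within a panel is no result. Tnfaip2 of the NF-kB list and Rsad2 of the interferon list depart from these orders and are not drawn.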

How the data were processed

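Single-cell transcripts of mouse cochlea were measured in 3 libraries with a 10x Genomics 3' kit, per the labels' protocols. The deposited matrix holds raw UMI counts per gene and barcode, made by the authors with Cell Ranger 7.1.0, per the file headers, on GRCm39, per the submitters' processing notes. Totals were 132576349, 93048140 and 146324872 UMIs over 17720, 10028 and 11344 barcodes of libraries 1, 2 and 3. No replicates exist within a library number.

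Barcodes with at least 500 UMIs, 200 genes and at most 20% mitochondrial UMIs were kept. Counts were summed over cells of a library and divided by the total (CPM), with a sum of 0 set to a floor of 3 counts in ratios. A gene counted as different at 2-fold, with at least 20 summed UMIs in every library for high against low Il1b, or 50 UMIs and 50 CPM between libraries. Shares have Clopper-Pearson intervals, levels exact Poisson intervals and ratios exact conditional binomial intervals, at 95%, and floors and intervals cover counting error only. Gated genes were left out of the counts of differing genes. Doublets were called with scrublet in scanpy 1.11.5 at an assumed rate of 6%, which marked 5.63, 4.69 and 4.73% of kept barcodes. Called doublets stayed in and were removed as an alternative. TMM factors came from edgeR 4.0.16 in R 4.3.3, and other steps ran in Python 3.11.15 with scipy 1.17.1, numpy 2.4.6 and pandas 2.3.3. The scripts were tested on simulated data.

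Named genes were the 5 markers and 7 gated genes, the 15 genes most raised and 10 most lowered in high Il1b cells by the library with the smallest ratio, the 10 with the largest ratio between libraries (some are not reported here), and up to 4 per gene list by level or ratio, with further members of lists described in full. Some others, such as those lower at matched depth, were named after their values were seen. The members and the 34 gene lists were chosen with earlier results of these data known. Of 487 list names, 480 were used, and Il36g, Clec7a, Mx1, Mx2, BC100530, Aldoa and Ddit3 were not analysed here. Alternatives changed the gates, the depth, the scaling, the minimum, the doublets, the hemoglobin content and the libraries included.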

Additional observations from a re-analysis of the deposited data

Results flagged for a closer look

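Among the named and listed genes with at least 20 UMIs in each library and 50 CPM in 1 of them, 4 were at least 2-fold higher in high Il1b cells of some library and at least 2-fold lower in another, a difference that was not tested. Ccl5, a chemokine of T cells, had log2 ratios of -1.11, -2.21 and 2.18 in libraries 1, 2 and 3, and in library 3 1 cell held 91.8% of its 97 UMIs in high Il1b cells. Col1a1, a collagen gene, had log2 ratios of -1.88, -3.43 and 2.05, and 1 cell held 92.2% of its 154 UMIs in library 3. Col1a2 had -2.07, -3.16 and 1.39, with 72.6% of 212 UMIs in 1 cell of library 3. Col3a1 had 2.00, -3.84 and 1.85, with 95.3% of 86 UMIs in 1 cell of library 1 and 88.0% of 175 UMIs in 1 cell of library 3.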

How the results depend on the processing

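No paired analysis was possible because each group has 1 library and no comparison between groups was made. The share of mature neutrophils with high Il1b in libraries 1, 2 and 3 was 40.3, 48.7 and 58.0% with the gate at 10 per 10,000, 11.7, 23.1 and 23.0% with the gate at 40, 36.4, 49.8 and 54.0% for cells thinned to 1000 UMIs, 27.6, 39.5 and 47.4% without called doublets and 29.3, 40.4 and 48.6% with Ngp, Camp and Ltf under 50 per 10,000. From 2000 UMIs up it was 19.8% and 28.8% in libraries 1 and 2. Library 3 kept the highest share in these settings except with the gate at 40, where library 2 was level with it. The 197 genes higher in high Il1b cells became 386 with TMM factors, 535 with median-of-ratios factors, 71 in thinned cells, 325 against cells under 5 Il1b UMIs per 10,000 and 59 at matched depth. The 1908 lower genes became 1183 with median-of-ratios factors, 93 in thinned cells and 10 at matched depth. Leaving out a library in turn gave 242 to 313 higher and 2388 to 2709 lower genes, the most higher genes without library 1, and 121 to 292 genes that differed between libraries, 209 without library 2 and 121 without library 3. Without the minimum of UMIs 8155 genes differed between libraries. TMM moved the median log2 ratio of all genes from -0.42, -0.28 and -0.59 to -0.19, -0.11 and -0.17, and median-of-ratios factors to -0.04, -0.04 and -0.09. Over the scalings 10 to 15 of 24 NF-kB genes were higher and none lower. The 25 genes named for high against low Il1b kept 2-fold and direction in 12 of 14 settings, with 24 in thinned cells and 14 of 19 at matched depth. With TMM and median-of-ratios factors 14 and 15 of 23 immediate-early genes and 6 and 8 of 16 adhesion genes were higher. Of genes lower at first, some had a positive mean log2 ratio at matched depth. It was positive in all 3 libraries, with a lowest value of 0.0060 for Ranbp1, 0.66 for Ccr2, 0.12 for Hsp90aa1, 0.22 for Hspd1, 0.17 for S100a4, 0.54 for Mki67, 0.30 for Pcna and 0.021 for Stmn1. Signs differed between libraries, with a highest value of 0.30 for Elane, 0.36 for Mpo, 0.45 for Ctsg, 0.55 for Ms4a3, 0.14 for Hspa8, 0.74 for Hspe1, 0.66 for Tfrc, 0.64 for Hsp90b1, 1.01 for Hbb-bs, 1.02 for Hbb-bt, 1.07 for Hba-a1 and 0.40 for Birc5. Without cells of over 1% hemoglobin UMIs the ratio was positive in all 3 libraries, with a lowest value of 0.51 for Hbb-bs, 0.39 for Hbb-bt and 0.52 for Hba-a1. With members from 40 Il1b UMIs per 10,000 the library with the highest level changed for H2-Aa, at a ratio of 5.46, and for Mki67, at 1.84. The cause of these changes was not tested. Depth limits the thinned comparison to genes with 20 UMIs per library.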

Other observations

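Saa3, an acute-phase gene made by activated stromal and myeloid cells, was lower in high than in low Il1b cells of library 3. In high Il1b cells it was at 31.3, 4.44 and 16.3 CPM in libraries 1, 2 and 3, whereas the low Il1b cells had 4.63, 0.508 and 211 CPM. In library 1, 1 cell held 64.2% of the 53 UMIs of high Il1b cells. Library 2 had only 9 UMIs in high and 4 in low Il1b cells, so no order is read from these 2 libraries. A UMI of Saa3 was found in library 3 in 112 of 807 low Il1b cells, or 13.9%, and in 27 of 631 high Il1b cells, or 4.28%, with 7.78% of B cells beside them. Thinned to 1000 UMIs those shares were 4.26, 1.27 and 1.62%. Saa3 was named after its values were seen.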
